A study of Arabidopsis thaliana with 4 samples.

Results

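AT2G43590 and AT2G43600 are neighbouring genes of the chitinase family on chromosome 2 of Arabidopsis thaliana. They were chosen by name, as family members that differed between the study's groups, and each was read from its brightest probe set paired with 1 gene. Each has 1 such probe set on the array, so 2 genes of 13333 with a single-gene probe set are described. Transcripts were measured in total RNA of dissected shoot apices of wild-type Col-0 plants, on 1 array per sample. The group SD30_LD7 had 30 short days followed by 7 long days and the group SD30 had 30 short days, with 2 samples in each and no transgene or mutation in either. Short days keep this accession vegetative for long, and long days promote flowering. The shifted plants had also grown for 7 more days, so day length and age cannot be told apart. Whether the replicates came from separate plantings is not in the labels, so every p-value reflects the spread of these 4 samples, which may be technical.

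Chitinases cut chitin, the polymer of N-acetylglucosamine in fungal cell walls and insect cuticles. Plants make no chitin of their own. Their chitinases, of glycoside hydrolase families 18 and 19, are known mainly as defence proteins that attack fungal walls and release fragments that plant receptors sense. Some members act in growth or are made in healthy tissue, and chitinase-like proteins take part in building the cell wall. AT2G43590 and AT2G43600 belong to the family 19 type, and their own substrates are not stated here. In the TAIR10.1 gene table they stand next to each other in a run of 6 chitinase genes from AT2G43570 to AT2G43620, which holds 2 annotated non-coding genes as well.

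All values are the authors' scaled intensities, a linear brightness per probe set. Array medians were 207 and 211 in SD30_LD7 and 214 and 220.5 in SD30. RNA integrity was read from the actin control, whose signal at the 3' end over that at the 5' end was 2.32 and 1.47 in SD30_LD7 and 1.61 and 1.99 in SD30. These overlapped. Of 14 shoot meristem markers, 2 were measured, CLV3 and ULT1. Their summed intensity was 1129 to 1251 in SD30_LD7 and 1090 to 1093 in SD30, most of it from ULT1. Neither passed, and their signs differed. ULT1 had a log2 difference of 0.14 ± 0.11 (limma adjusted p = 0.45) and CLV3 one of -0.12 ± 0.28 (limma adjusted p = 0.84). Of the green leaf markers 2 of 6 were measured, with sums of 3741 to 3880 in SD30_LD7 and 3917 to 5537 in SD30, most of it from RCA. They differed in sign, as LHCB4.3 rose (log2 difference 1.72 ± 0.16, limma adjusted p = 1.7e-05) and RCA had -0.42 ± 0.15 (limma adjusted p = 0.085). Of the trichome and guard cell markers 2 of 3 were measured, with sums of 433.2 to 439.9 in SD30_LD7 and 495.8 to 571.8 in SD30. These too differed in sign, as SPCH fell (-0.57 ± 0.15, limma adjusted p = 0.026) and TRY had 0.27 ± 0.20 (limma adjusted p = 0.44). The part of these cells in the levels of the pair was not tested. None of these markers was listed at 0, and the 3 vascular markers were not analysed here.

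AT2G43600 had intensities of 34.7 and 50.8 in SD30_LD7 apices, against 187.5 and 304.5 in SD30 apices. Both shifted arrays were lower than both short day arrays. The group means were 42.75 ± 11.4 in SD30_LD7 and 246 ± 82.7 in SD30 (SD, n = 2 each), so the SD30 mean was 5.75 times the SD30_LD7 mean. On the log2 scale the difference, SD30_LD7 minus SD30, was -2.51 ± 0.30 (SE). It ranked 86th among the falls of the 15922 probe sets compared. The gene was chosen for this contrast, so the difference is a description and was given no test.

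AT2G43590 was dimmer, with intensities of 28.7 and 10.9 in SD30_LD7 apices and 73.2 and 118 in SD30 apices. Again the groups did not overlap. The means were 19.8 ± 12.6 in SD30_LD7 and 95.6 ± 31.7 in SD30 (SD, n = 2 each), and the SD30 mean was 4.83 times the SD30_LD7 mean. Before log2 values were taken, dim values were raised to a floor of 23.5, the 20th percentile over all arrays, and SD30_LD7 replicate 2 lay below it. The log2 difference of -1.84 ± 0.37 (SE) therefore understates the change, and it ranked 213th among the falls.

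Both genes thus had both shifted arrays below both short day arrays, as did 26.9 percent of the 15922 probe sets, a background from which nothing is read for genes chosen on this contrast. In the limma fit across all probe sets, 8.20 percent were lower and 6.80 percent higher in SD30_LD7 at an adjusted p below 0.05, which is 1305 lower and 1083 higher. With each array centred on its median the balance turned, to 1068 lower and 1328 higher. In bulk apices, fewer cells that express a gene and less RNA per cell cannot be told apart. Both genes passed the limit on dim probe sets, an intensity of 41.4 for the mean log2 value over the 4 arrays. AT2G43590, at 49.1, passed through its SD30 level of 92.9, since its SD30_LD7 level was 26.0. AT2G43600, at 100.2, had 42.0 in SD30_LD7 and 239 in SD30.

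The order of the samples within a group was the same for both genes in SD30 and opposite in SD30_LD7. In SD30, replicate 2 was the brighter sample for both, 1.61 times replicate 1 for AT2G43590 and 1.62 times for AT2G43600. In SD30_LD7 their order differed. Replicate 1 was 2.63 times replicate 2 for AT2G43590, with replicate 2 under the floor, and 0.683 times replicate 2 for AT2G43600. With 2 samples in each group, these ratios have no error of their own.

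The other chitinase genes of the run were tested as members of the family list. That list was made with earlier results of these data known. CHI (AT2G43570), at the start of the run, fell to 272.1 and 220.8 in SD30_LD7, against 671 and 539.2 in SD30. Its log2 difference was -1.30 ± 0.16 (SE, limma adjusted p = 1.5e-04). AT2G43610, the next gene after the pair, fell to 171.1 and 144.9 in SD30_LD7, against 305.4 and 371.4 in SD30, a difference of -1.10 ± 0.18 (limma adjusted p = 0.0013). Each of these genes had both SD30_LD7 arrays below both SD30 arrays, as did 26.9 percent of all probe sets. The call of AT2G43610 was lost without SD30 replicate 2 (adjusted p = 0.056).

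AT2G43620, at the end of the same run, went the other way. It rose to 145.9 and 143.2 in SD30_LD7, against 68.5 and 53.9 in SD30, with a log2 difference of 1.25 ± 0.26 (limma adjusted p = 0.0055). Its groups did not overlap, but it missed the threshold when SD30_LD7 replicate 1 (0.055), SD30_LD7 replicate 2 (0.056) or SD30 replicate 2 (0.056) was left out. AT2G43580, directly before the pair, had 2.4 and 2.5 in SD30_LD7 and 2.3 and 1.5 in SD30. All 4 values lay under the floor, so it was too dim to test. Of the 4 chitinase genes of the run beside the pair, 2 thus fell, where 8.20 percent of all probe sets did, 1 rose, where 6.80 percent did, and 1 was not tested. How far a probe set of one gene also binds transcripts of its relatives in the run was not tested.

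**Figure D1:**
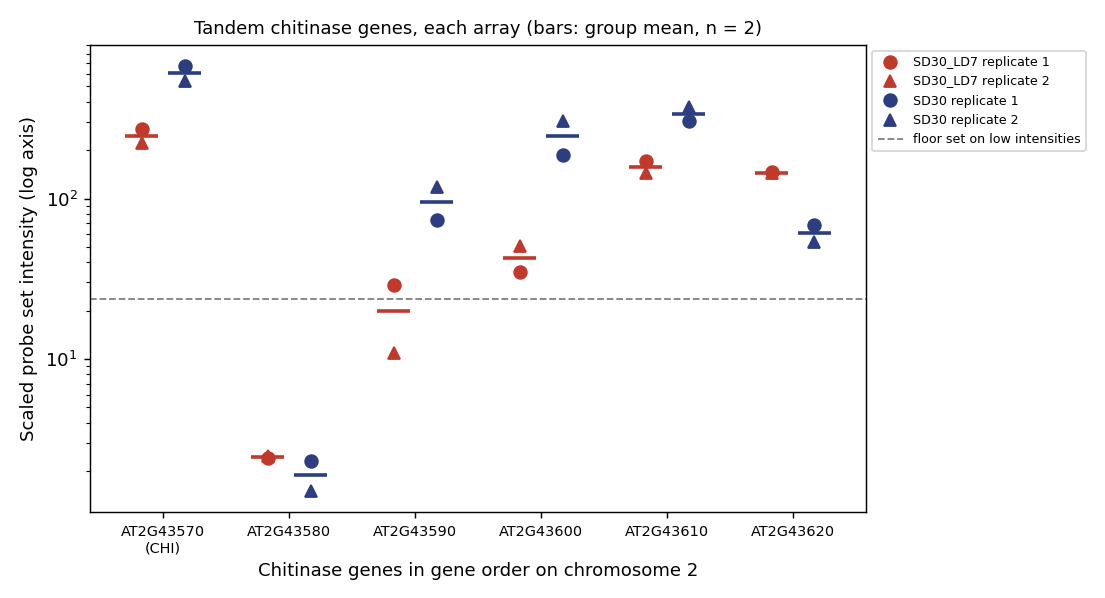
Scaled intensity (log axis) of the 6 chitinase genes of the run in gene order, with SD30_LD7 left of SD30 in each gene, points for the 2 replicates, bars for the group mean and a dashed line at the floor of 23.5. AT2G43590, AT2G43600, CHI and AT2G43610 have both SD30_LD7 points below both SD30 points, AT2G43620 has them above, and AT2G43580 lies under the floor in all samples. Heights are not comparable between genes, which have different probes.

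The family list held 24 genes with the pair, of which 15 had a single-gene probe set, and the other 9 were not analysed here. Outside the run 9 were measured and 4 were above the dim limit. The one of these with the largest difference was ChiC (AT4G19810), a family 18 chitinase. ChiC had 12 and 7.6 in SD30_LD7, against 88.6 and 78.5 in SD30. Both shifted values lay under the floor, so ChiC was at least 3.55-fold lower. It passed the dim limit only through its SD30 values and so had to differ, and no p-value is given for it. With the floor at the 5th or the 40th percentile or with a pseudocount it was too dim to test.

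The other 3 genes outside the run that were bright enough to test are of family 19, and none of them passed. AT3G47540 had 124.6 and 131.5 in SD30_LD7 and 166.4 and 125.6 in SD30, with a log2 difference of -0.18 ± 0.22 (limma adjusted p = 0.69). AT4G01700 had 54.5 and 65.5 in SD30_LD7, and its SD30 values of 113.5 and 45.2 lay on either side of them (-0.26 ± 0.40, limma adjusted p = 0.75). AT1G56680 had 46.6 and 44 in SD30_LD7 and 38.9 and 51.4 in SD30 (0.02 ± 0.36, limma adjusted p = 0.98). In each of the 3 genes the groups overlapped. Without SD30 replicate 1 the signs of all 3 turned, to 0.03, 0.40 and -0.18, with none passing.

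Over the family beside the pair and ChiC, 6 genes were tested. Of these 2 fell, CHI and AT2G43610, where 8.20 percent of all probe sets did, and 1 rose, where 6.80 percent did. The median log2 difference of the 6 was -0.22, and that of all 15922 probe sets was -0.0021. Without SD30 replicate 2 CHI alone of the 6 passed.

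The 6 measured genes that were too dim to test include 4 of family 18 on chromosome 4. AT4G19730 and AT4G19740 lay under the floor in all samples. AT4G19720 had 26.6 and 33.7 in SD30_LD7 and 31.7 and 30.3 in SD30, overlapping values. AT4G19820 had 21.9 and 3.2 in SD30_LD7 and 35.4 and 47.3 in SD30. The family 19 gene AT1G02360 had 46.5 and 47.8 in SD30_LD7 and 2.5 and 23.6 in SD30, so both short day values lay under or close to the floor. The last of the 6 is AT2G43580.

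**Figure D2:**
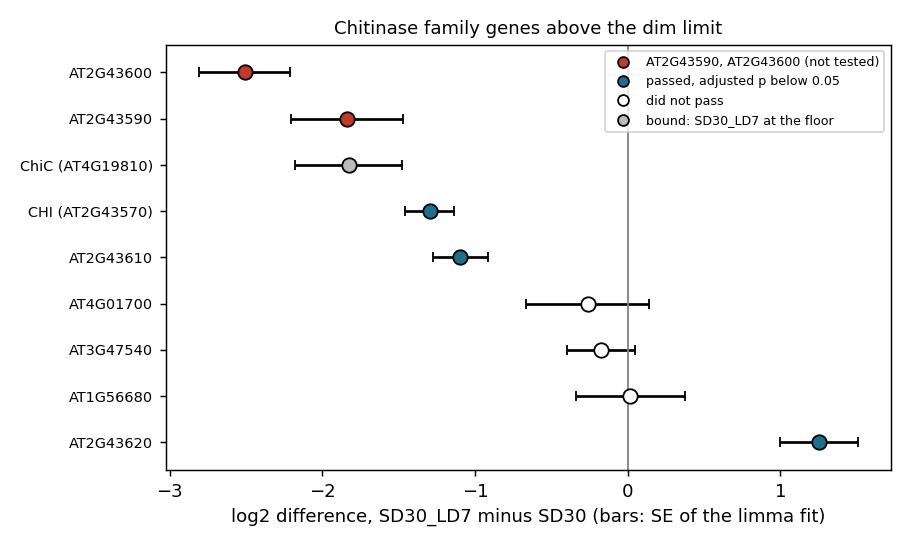
Log2 difference, SD30_LD7 minus SD30, with its SE from the limma fit, for the 9 chitinase family genes above the dim limit, in order of the difference. AT2G43600 at -2.51 and AT2G43590 at -1.84 (red, not tested) stand at the lower end beside ChiC at -1.83 (grey), which is a bound, and AT2G43620 at 1.25 stands alone at the upper end. Blue points passed and open points did not.

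The genes around the run were compared to show whether the pair's surroundings moved with it. Of the 15 genes on each side of the pair in gene order, 14 had a single-gene probe set and 12 were bright enough to test. Of these 12, 5 fell and 3 rose, where 8.20 and 6.80 percent of all probe sets did. Their median log2 difference was -0.17. Without the chitinase genes, 9 neighbours were tested, with 3 lower, 2 higher and 4 that did not pass. Leaving out any 1 array brought the calls among the 12 down to 3 to 5, the fewest without SD30 replicate 2, and the fit without an intensity trend called 6.

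Before the run stand genes of small defensin-like proteins, cysteine-rich secreted peptides. AT2G43530 rose to 5786 and 4844 in SD30_LD7, against 2067 and 2465 in SD30 (log2 difference 1.23 ± 0.13, limma adjusted p = 3.4e-05). AT2G43535 rose to 538.5 and 340.7, against 240.8 and 236.9 (0.84 ± 0.20, limma adjusted p = 0.012). It missed the threshold when SD30_LD7 replicate 1 (0.16), SD30 replicate 1 (0.14) or SD30 replicate 2 (0.15) was left out, without an intensity trend (0.091) and under the higher floor of the 40th percentile (0.056). AT2G43550 fell to 813 and 737.6 in SD30_LD7, against 1359 and 1925 in SD30 (-1.06 ± 0.15, limma adjusted p = 3.7e-04). Directions thus differed within these peptide genes too. AT2G43540, which stands among them, had 0.12 ± 0.25 (limma adjusted p = 0.83), with overlapping groups.

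Immediately beside the run, no call was made on either side. AT2G43560, the last gene before CHI, had 808.2 and 871.9 in SD30_LD7 and 1215 and 978.8 in SD30, with a log2 difference of -0.38 ± 0.12 (limma adjusted p = 0.063). AT2G43630, the first gene after AT2G43620, had 0.24 ± 0.11 (limma adjusted p = 0.19), and AT2G43640 after it had 0.04 ± 0.10.

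Further out, 2 genes of proteins with a carbohydrate-binding X8 domain fell. AT2G43660 had 112.7 and 62 in SD30_LD7 and 219.2 and 182.3 in SD30 (-1.26 ± 0.28, limma adjusted p = 0.0096). AT2G43660 missed the threshold when SD30_LD7 replicate 2 (0.086), SD30 replicate 1 (0.16) or SD30 replicate 2 (0.094) was left out, and without an intensity trend (0.061). AT2G43670 had 135.8 and 130.5 in SD30_LD7 and 198.4 and 258.5 in SD30 (-0.77 ± 0.20, limma adjusted p = 0.023). Leaving out each array in turn gave AT2G43670 an adjusted p of 0.090 and 0.12 for the shifted arrays and of 0.054 and 0.21 for the short day arrays, so none of these fits called it.

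**Figure D3:**
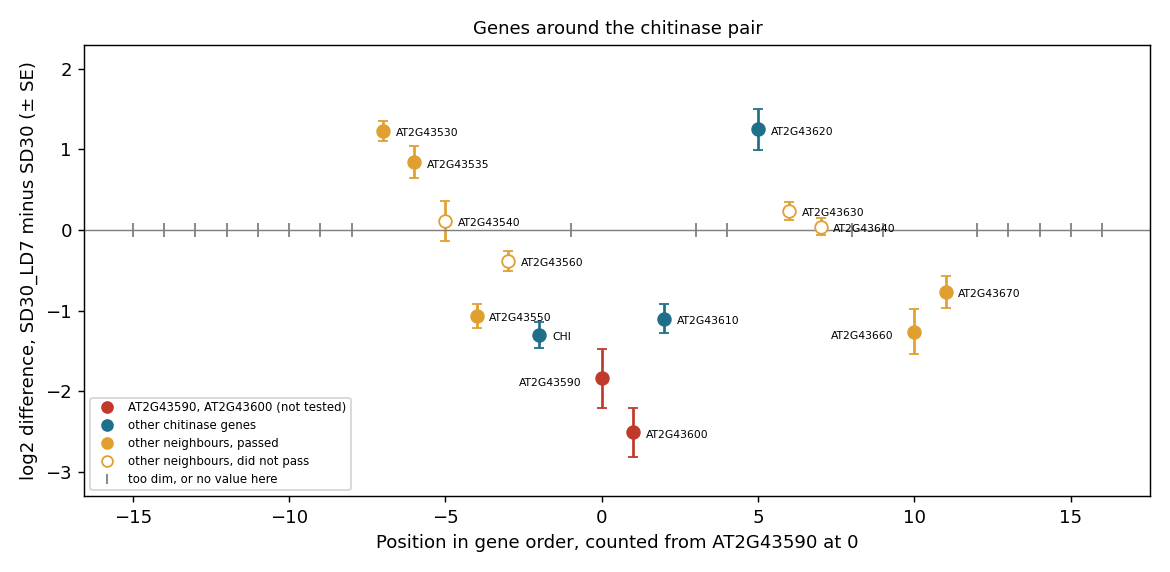
Log2 difference, SD30_LD7 minus SD30 (± SE of the limma fit), by position in gene order counted from AT2G43590 at 0. The pair (red), which was chosen on this contrast, has the lowest values among the genes shown with a value, -1.84 and -2.51. CHI lies at -1.30 and AT2G43610 at -1.10, while AT2G43620 and AT2G43530 lie above 0. Grey ticks mark genes that were too dim or have no value here.

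Chitin sensing and other defence genes were measured only in small part. Of 14 genes of chitin perception and signalling, 2 were measured and 1 was bright enough to test. This was BIK1, a receptor-like cytoplasmic kinase of immune signalling, which fell to 287.2 and 307.6 in SD30_LD7, against 520.1 and 530.8 in SD30 (log2 difference -0.82 ± 0.13, limma adjusted p = 0.0012). Of all probe sets, 8.20 percent were lower. With no filter on dim probe sets BIK1 missed the threshold (limma adjusted p = 0.071). The receptor gene CERK1 was not analysed here.

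Of 32 further defence genes, 6 were measured and 4 tested, with 1 higher, where 6.80 percent of all probe sets were, and 0 lower, where 8.20 percent were. THI2.1, which encodes an antimicrobial thionin known from flowers and jasmonate response, rose to 2220 and 1797 in SD30_LD7, against 528.5 and 498.2 in SD30 (1.96 ± 0.12, limma adjusted p = 4.8e-07). SAG101, of immune signalling through EDS1, had 0.50 ± 0.25 (limma adjusted p = 0.23). WRKY53, a transcription factor of senescence and defence, had -0.29 ± 0.33 (limma adjusted p = 0.65), and the plant defensin PDF1.2 had -0.05 ± 0.34 (limma adjusted p = 0.95), a sign that turned to 0.22 with quantile normalization and to 0.01 with median centring. The median of the 4 was 0.23. PR1, a common defence marker, was not analysed here.

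Few markers of other organs were measured. PYK10, a beta-glucosidase gene of endoplasmic reticulum bodies that is strongest in roots and seedlings, was the 1 measured of 2 root markers. It fell to 224 and 276.5 in SD30_LD7, against 2380.2 and 2396 in SD30 (log2 difference -3.26 ± 0.12, limma adjusted p = 1e-08). UFO, the 1 measured of 6 floral markers, had 181.2 and 199.7 in SD30_LD7, against 29.3 and 57.4 in SD30. It passed the dim limit only through its SD30_LD7 values, so no p-value is given for it. Their part in the levels of AT2G43590 and AT2G43600 was not tested.

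The genes with the profiles most like each of the pair were found by distance, the root of the summed squared differences of 4 log2 values, each centred on its gene's mean. The comparison ran over 8677 other tested genes and 4 arrays, and it rests on the same contrast as the choice of the pair. AT2G43590 and AT2G43600 were 0.89 apart. This distance and the counts below depend on the floor, which raised SD30_LD7 replicate 2 of AT2G43590 from 10.9 to 23.5. Of the 8677, 184 lay closer to AT2G43590 than AT2G43600 did, and 51 lay closer to AT2G43600 than AT2G43590 did, so neither was the nearest profile to the other.

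Closest to AT2G43590 was AT4G39670, at a distance of 0.21, with 30.3 and 4.3 in SD30_LD7 and 87.2 and 116.5 in SD30. Next came AT3G57010 at 0.22, AT5G44380 at 0.29, AT5G14860 at 0.29 and AT4G22790 at 0.30. All 4 of these had both SD30_LD7 values under the floor, which makes their shifted values equal on the log2 scale. AT4G39670 had 1 of 2 there, as AT2G43590 did.

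Closest to AT2G43600 was AT3G26960, at 0.32, with 58.7 and 71.2 in SD30_LD7 and 330.7 and 419.8 in SD30. AT2G30540 followed at 0.36, with 37.4 and 44.9 in SD30_LD7 and 199.2 and 244.9 in SD30. SFP1, a gene of the sugar transporter family, was at 0.40, AT3G14560 at 0.44 and AGL19, a MADS box gene of flowering, at 0.44. Of these 5 only AGL19 had SD30_LD7 values under the floor, 23.1 and 12.5.

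**Figure D4:**
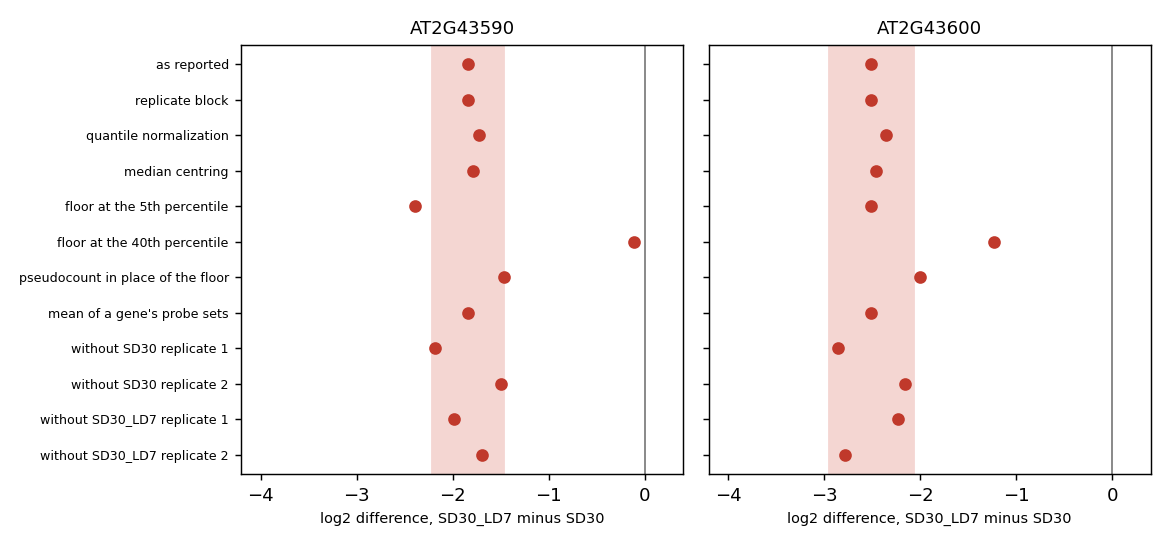
Log2 difference, SD30_LD7 minus SD30, of AT2G43590 (left) and AT2G43600 (right) as reported and under each other setting, with a band of 1 pooled SD between replicates around the reported value. All points lie below 0, which is no check for genes chosen on this contrast. The floor at the 40th percentile moves AT2G43590 to -0.11 and AT2G43600 to -1.23.

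The size of both differences depends on how dim values are treated, more so for AT2G43590. With the floor at the 40th percentile, an intensity of 101.8, both shifted values of each gene and SD30 replicate 1 of AT2G43590 lay at the floor, and the differences were -0.11 for AT2G43590 and -1.23 for AT2G43600. With the floor at the 5th percentile, an intensity of 3.3, AT2G43590 had -2.39 and AT2G43600 kept -2.51.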

How the data were processed

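The deposited table holds the authors' linear intensity for each of 22746 probe sets and 64 control probe sets on 4 arrays. Trimmed by 2 percent at either end, the array means are 500.03 to 500.04, so the authors had brought the arrays to a common level. Which software they used is not stated in the labels. The 4 arrays limit the precision.

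Probe sets were named from an annotation table that pairs 13513 with 1 gene, 503 with several and leaves 8730 unnamed. Symbols and gene order come from the TAIR10.1 gene table through gene identifiers, which placed 13484. Each gene was read from its brightest single-gene probe set.

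Intensities were floored at 23.5, log2 values taken, control probe sets left out, and the dimmest 30 percent by mean over the 4 arrays removed, which left 15922. The comparison used a two-sided moderated test in limma 3.58.1 (R 4.3.3) with a variance trend on intensity, on 2 residual and 9.90 prior degrees of freedom. Benjamini-Hochberg adjustment ran over all 15922, with a threshold of 0.05. It was tested on simulated data of this size with known changes.

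The pair and the gene lists were chosen with earlier results of these data known. Named were the pair, every tested chitinase gene, neighbours that passed or stand next to the pair, up to 6 tested genes of the chitin and defence lists by p-value, and the 5 most alike genes of each. Other neighbours and the dim chitinase genes were named after their values were seen, and marker genes come from the marker lists. Replicate numbers were not treated as pairs. Alternatives were the replicate number as a block, each array left out, quantile or median scaling, a lower and a higher floor (5th or 40th percentile), a pseudocount of 23.5, no dim filter or one at 50 percent, no variance trend, and averaging a gene's probe sets. Figures were drawn with matplotlib 3.10.9.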

Additional observations from a re-analysis of the deposited data

How the results depend on the processing

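AT2G43590 had -2.39 with the floor at the 5th percentile, -0.11 at the 40th and -1.46 with a pseudocount, and -2.18 to -1.49 with 1 array left out. AT2G43600 had -1.23 at the 40th percentile, -2.0 with a pseudocount and -2.86 to -2.16 with 1 array left out. Both kept their direction in all settings run for them, which is no check for genes chosen on this contrast. Both were too dim to test with the dimmest 50 percent left out. In that setting limma called 2 of the 2 other chitinase family genes tested, both lower, and 5 of 9 neighbours (2 higher, 3 lower). Of all 11373 probe sets tested there, 798 were lower and 862 higher.

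Against 2388 probe sets called, 152 were called with no filter on dim probe sets (44 higher), 1532 without an intensity trend (596 higher) and 1058 to 1494 with 1 array left out. With no filter, limma called 1 other chitinase gene, AT1G02360 (higher). The floor of 23.5 made its SD30 values of 2.5 and 23.6 nearly equal, so nothing is read from that call. No gene of the chitin, defence or neighbour lists was called with no filter (0, 0 and 0, where 1, 1 and 6 had an unadjusted p below 0.05). Marker lists aside, all 21 named genes that had passed in the main fit lost their calls with no filter. Leaving out 1 array gave 2 to 4 chitinase genes (ChiC included, as in 4 with all arrays; 3 of 6 or 5 tested with other floors or a pseudocount), 3 to 5 neighbours and 1 gene in each of the chitin and defence lists. The lone array was then assumed to vary like the other group. Signs turned only for genes that had not passed. Without SD30 replicate 1 these were AT1G56680 (-0.18), AT3G47540 (0.027), AT4G01700 (0.40) and PDF1.2 (0.097), and without SD30_LD7 replicate 1 AT1G56680 (-0.023) and PDF1.2 (0.060). Over all single arrays left out, AT3G47540 had -0.38 to 0.027, AT4G01700 -0.93 to 0.40 and PDF1.2 -0.19 to 0.097. PDF1.2 had 0.22 with quantile normalization and 0.0073 with median centring. Beyond the effect of the floor and the filter, the cause was not tested.

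Samples share replicate numbers in the labels, and same-numbered samples deviated from their group means with a correlation of 0.05 across 15922 probe sets. The replicate block leaves the differences of AT2G43590 and AT2G43600 at -1.84 and -2.51, since both groups hold the same replicate numbers. With the block all named genes kept their side of the threshold.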
